A study of Mus musculus with 58 samples.

Results

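The collagen chains, laminin chains and a short list of other extracellular matrix genes were followed in mouse brain after traumatic brain injury (TBI). The members were every gene symbol made of Col, a number, a and a number, or of Lam, one of a, b or c and a number, together with Fn1, Lum, Dcn, Bgn, Fbln1, Fbln5, Fbn1, Postn, Sparc, Nid1 and Nid2. This gave 63 of the 15171 genes counted. The rule uses names only.

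RNA was sequenced from hippocampus and cortex of the injury site, frozen together as 1 piece per mouse, 14 days after surgery. Mice of 3 months on the C57BL/6 background expressed human APOE3 (E3) or APOE4 (E4) by targeted replacement of the mouse gene and carried either both copies of Abca1 (Abca1+/+) or 1 copy (Abca1+/-). Injured mice received 1 controlled cortical impact on the left parietal cortex, 1.0 mm deep with a 3.0 mm tip at 3 m/s, through a 4.5 mm craniotomy. Sham mice had the same anaesthesia and craniotomy without impact, so the opened skull is common to both arms. The groups held 8 E3/Abca1+/+ sham and 8 E3/Abca1+/+ TBI mice, 7 E3/Abca1+/- sham and 6 E3/Abca1+/- TBI mice, 7 E4/Abca1+/+ sham and 7 E4/Abca1+/+ TBI mice, and 7 E4/Abca1+/- sham and 8 E4/Abca1+/- TBI mice, with both sexes in each. Both alleles are carried in the germline and are not limited to a brain cell type.

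Collagens are 3-chain proteins that build fibrils, nets or beaded filaments, and type IV collagen with laminins and nidogens forms the basement membrane around vessels, under the meninges and at the astrocyte endfeet. In healthy brain, fibrillar collagen is found mainly in the meninges and around larger vessels. After a wound that opens the brain surface, fibroblasts and reactive astrocytes border the lesion, and a matrix with fibrillar collagen, fibronectin and basement membrane is laid down there.

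Library totals ran from 4421308 to 37877346 counts, with a median of 18871445.5 in Abca1+/- mice and 8350020.5 in Abca1+/+ mice. Levels are given as CPM, read counts scaled by library size and TMM factors, and changes are log2 fold changes from edgeR's quasi-likelihood test with Benjamini-Hochberg adjustment over all genes tested, called at an adjusted p under 0.05. Abca1 itself, which carries the deleted allele, lay between 33.3 and 60.8 CPM (median 48.9) in 15 Abca1+/+ sham mice and between 28.9 and 42.4 CPM (median 35.3) in 14 Abca1+/- sham mice, and after TBI between 98.7 and 296 CPM (median 142) and between 76.1 and 214 CPM (median 115), so the ranges overlapped. Ttr, the transthyretin gene that marks choroid plexus epithelium, was at or above 100 CPM in 8 of 29 sham and 8 of 29 TBI mice (lowest 275 CPM) and at or below 21.3 CPM in the others. The Ttr mice were 0 of 8 in E3/Abca1+/+ sham, 1 of 8 in E3/Abca1+/+ TBI, 3 of 7 in E3/Abca1+/- sham, 1 of 6 in E3/Abca1+/- TBI, 2 of 7 in both E4/Abca1+/+ groups, 3 of 7 in E4/Abca1+/- sham and 4 of 8 in E4/Abca1+/- TBI. Replicate numbers name mice only, and p-values measure the spread between mice.

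The sequences just upstream of 3 of the genes that rose most, and of the neighbour that shares a gap with 1 of them, are shown to place these genes on the genome. All 63 members are RefSeq genes. The set of RefSeq promoter sequences used here (GRCm38.p6) held 51 start sites for 44 of them, and 19 members had no entry in that set. Col4a5 and Col4a6, the chains α5 and α6 of type IV collagen, lie head to head on chromosome X with starts 1343 bp apart. The windows read 5′ to 3′ on the gene's own strand, and capitals mark a short motif on either strand: the letters CCAAT in the Col4a5 window, the GC box GGGCGG (here read on the other strand) in the Col4a6 window, and the TATA box letters TATAAA in the windows of Col3a1 and Postn. Col4a5 also has a GGGCGG match, at -30 from its start, which is not shown. The Col4a5 window stops 34 bases short of the start, where an annotated exon begins. They are chrX:141475169-141475384 (plus strand) for Col4a5, chrX:141474077-141474326 (minus strand) for Col4a6, chr1:45311288-45311537 (plus strand) for Col3a1, and chr3:54360857-54361106 (plus strand) for the inner of the 2 listed Postn starts.
Col4a5: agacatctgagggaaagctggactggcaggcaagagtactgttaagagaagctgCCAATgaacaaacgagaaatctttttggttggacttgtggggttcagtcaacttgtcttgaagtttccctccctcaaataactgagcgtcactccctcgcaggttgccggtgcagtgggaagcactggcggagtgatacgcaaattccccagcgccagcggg
Col4a6: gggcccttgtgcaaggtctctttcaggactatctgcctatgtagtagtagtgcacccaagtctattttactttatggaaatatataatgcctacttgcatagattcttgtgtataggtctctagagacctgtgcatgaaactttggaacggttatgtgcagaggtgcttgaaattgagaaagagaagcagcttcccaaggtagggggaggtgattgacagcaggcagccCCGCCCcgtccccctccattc
Col3a1: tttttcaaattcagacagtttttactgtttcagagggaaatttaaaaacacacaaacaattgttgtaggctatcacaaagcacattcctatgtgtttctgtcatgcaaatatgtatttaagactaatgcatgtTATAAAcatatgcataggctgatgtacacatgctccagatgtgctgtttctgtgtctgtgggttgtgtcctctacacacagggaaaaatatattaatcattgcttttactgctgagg
Postn: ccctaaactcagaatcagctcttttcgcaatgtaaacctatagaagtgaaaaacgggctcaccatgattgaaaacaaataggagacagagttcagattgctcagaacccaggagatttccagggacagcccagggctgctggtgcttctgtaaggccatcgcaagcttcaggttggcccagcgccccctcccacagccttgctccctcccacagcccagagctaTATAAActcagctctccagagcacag
Over the 250 bases before each start, GGGCGG, the letters of a GC box, stood in 54.9% of the 51 member promoters and 32.7% of all 32851 promoters. TATAAA stood in 7.84% of member promoters and 12.4% of all, CCAAT in 29.4% and 33.8%, and TGANTCA, the letters of an AP-1 site, in 1.96% and 6.75%. Both strands were searched, and no motif's letters hold another's. Such matches describe letters and name no factor.

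TBI raised most of the matrix genes. In the effect averaged over the 4 genotypes, fitted on all 58 mice, 44 of 63 members rose and 3 fell, where 29.0% of all 15171 genes rose and 24.3% fell. The median change was 0.41 (log2) over the 63 members and 0.01 over all genes. Col4a6 rose most, by 1.58 ± 0.16 (log2, SE), or 2.99-fold. It was followed by Col3a1, the fibrillar chain of type III collagen, at 2.43-fold, Col4a5 at 2.14-fold and Postn, which codes for the fibroblast product periostin, at 2.01-fold. The plot of 62 of these changes groups them by kind of protein.

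**Figure D1:**
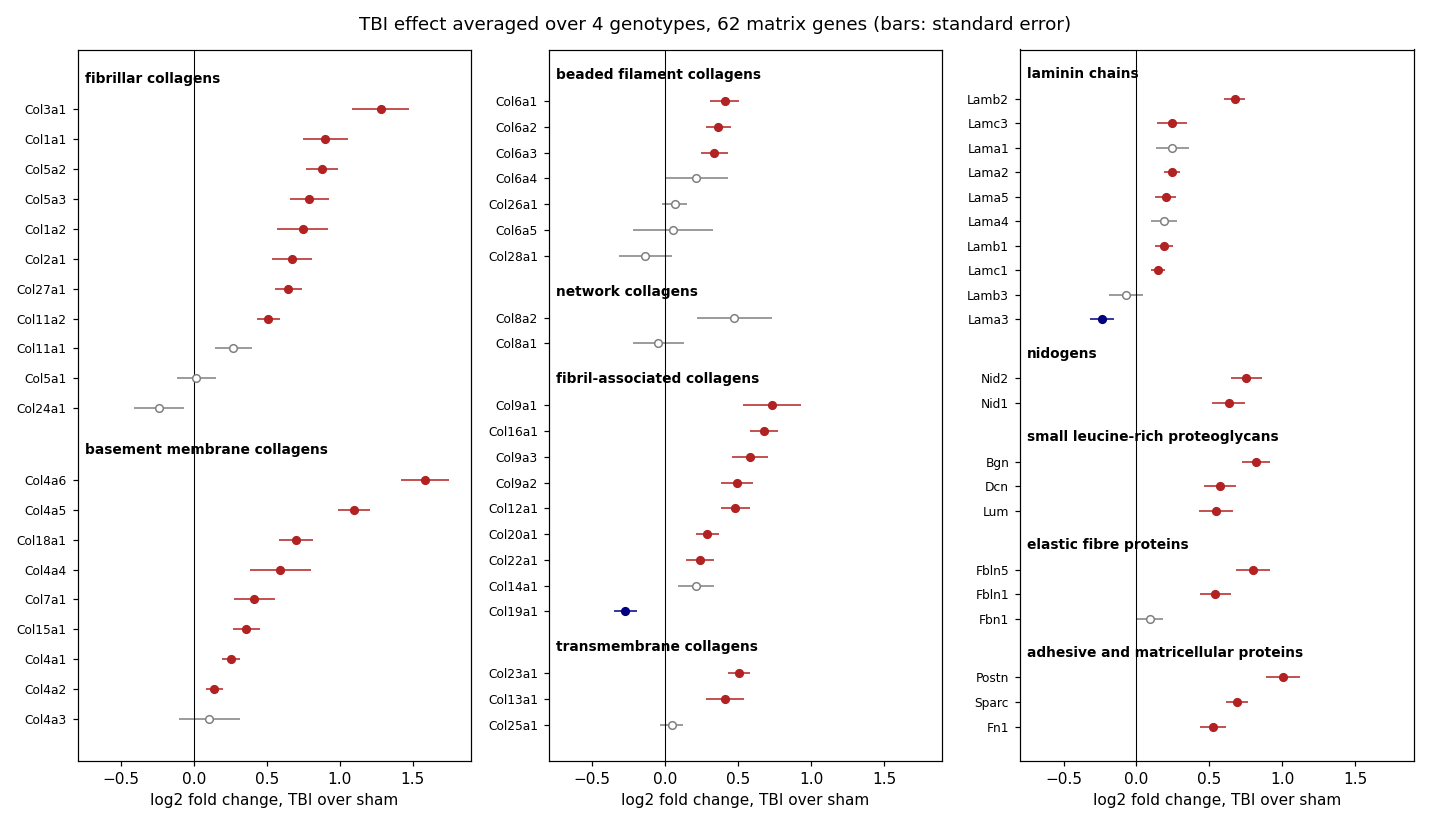
Log2 fold change of TBI over sham (horizontal axis, averaged over 4 genotypes) for 62 of the 63 members, in 11 kinds of protein. Bars are standard errors, filled red points rose, filled blue points fell and open grey points did not pass the test. The point furthest right is Col4a6 at 1.58 and the blue points are Col19a1 and Lama3.

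The fibrillar collagens, which form the rope-like fibrils of scars, rose in 8 of 11 chains with a median of 0.67 (log2). Col3a1 lay between 2.30 and 14.1 CPM (median 6.01) in 29 sham mice and between 3.36 and 44.0 CPM (median 14.0) in 29 TBI mice, and 14 TBI mice lay above every sham mouse. Its averaged change was 1.28 ± 0.20 (log2, SE; edgeR adjusted p = 1.93e-07). Within genotypes its median went from 6.28 to 11.7 CPM in E3/Abca1+/+, from 5.23 to 14.3 CPM in E3/Abca1+/-, from 6.97 to 14.3 CPM in E4/Abca1+/+ and from 5.48 to 14.1 CPM in E4/Abca1+/- mice, and the sham and TBI ranges overlapped in all 4. Col3a1 was called in each of the 4 genotypes.

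Type I collagen, the most abundant collagen of scar and bone, rose in both its chains. Col1a1 lay between 7.83 and 22.1 CPM (median 12.8) in sham and between 7.29 and 74.8 CPM (median 21.5) in TBI mice, a change of 0.90 ± 0.15 (adjusted p = 1.70e-06). Col1a2, the fibrillar chain with the highest level per length (5.19 CPM per kb of exon), lay between 7.98 and 34.7 CPM (median 20.6) in sham and between 5.82 and 106 CPM (median 31.5) in TBI mice, a change of 0.74 ± 0.18 (adjusted p = 0.000301). The lowest TBI value of each chain lay below the lowest sham value. Col1a1 was called in 3 genotypes and Col1a2 in 2, with adjusted p of 0.0497 for Col1a2 in E3/Abca1+/+ mice, a call lost in 10 of 16 fits that each left out 1 mouse. The other Col1a2 call, in E4/Abca1+/+ mice, was lost in 6 of 14 such fits.

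Among the other fibrillar chains, Col5a2 lay between 3.37 and 9.41 CPM (median 6.50) in sham and between 6.06 and 23.6 CPM (median 11.0) in TBI mice. It rose by 0.88 ± 0.11, with 21 TBI mice above every sham mouse. Col5a3 rose by 0.79 ± 0.13, Col2a1, best known from cartilage, by 0.67 ± 0.14, Col27a1 by 0.65 ± 0.09 and Col11a2 by 0.51 ± 0.08. Col5a1, the usual partner of Col5a2 in type V collagen, had a change of 0.02 ± 0.13 (adjusted p = 0.937), from a median of 23.9 CPM in sham to 27.5 CPM in TBI mice. Col11a1 at 0.27 ± 0.12 and Col24a1 at -0.24 ± 0.17 did not pass either.

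**Figure D2:**
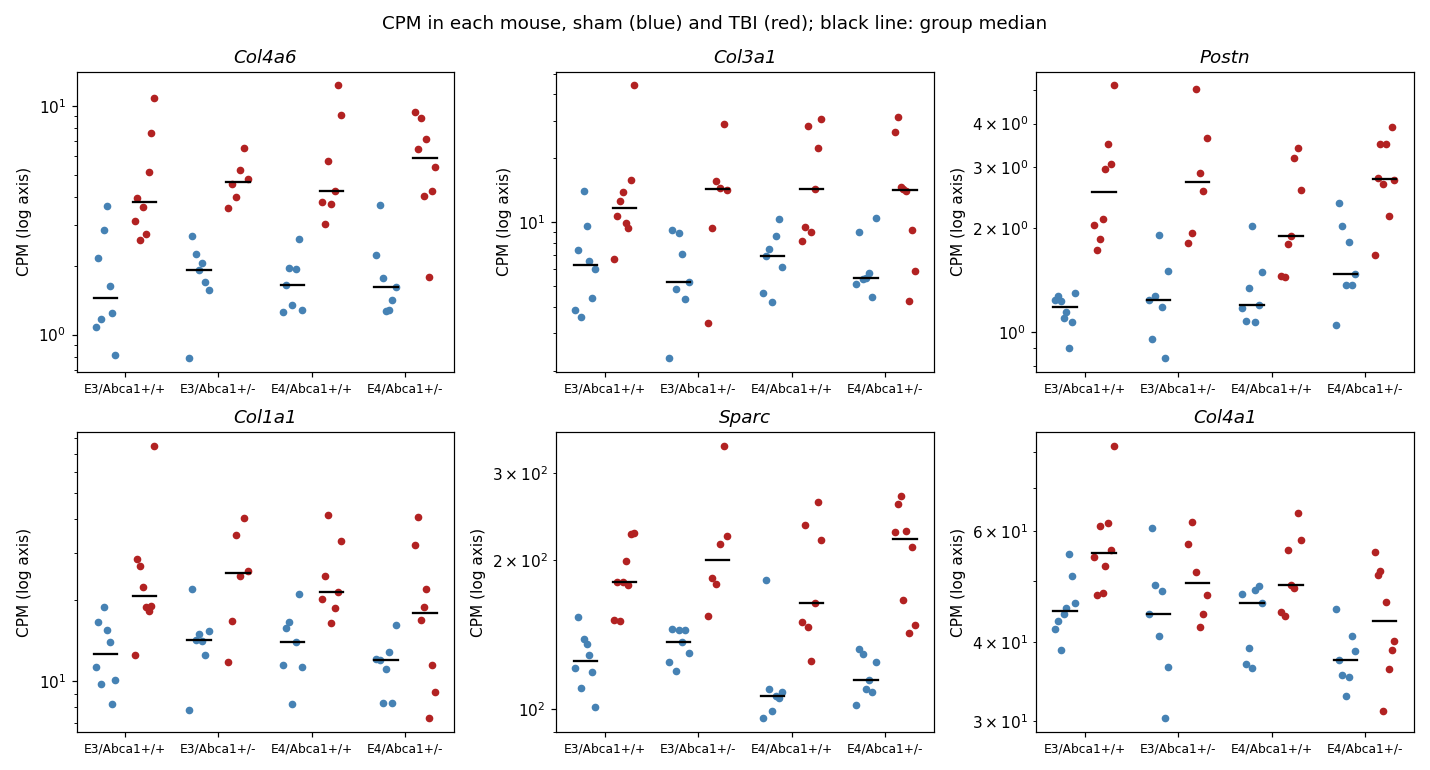
CPM (vertical log axis) of 6 members in each mouse, by genotype, with sham in blue, TBI in red and the group median as a black line. In Col4a6 the medians of the 4 TBI groups lie between 3.79 and 5.93 CPM and those of the 4 sham groups between 1.44 and 1.91 CPM, while Col4a1 overlaps widely.

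The basement membrane collagens rose in 8 of 9 chains, and the size of the rise differed between the type IV chains. Col4a6 lay between 0.79 and 3.67 CPM (median 1.65) in sham and between 1.78 and 12.3 CPM (median 4.56) in TBI mice, with 22 TBI mice above every sham mouse. Its group medians went from 1.44 to 3.79 CPM in E3/Abca1+/+, from 1.91 to 4.66 CPM in E3/Abca1+/-, from 1.65 to 4.24 CPM in E4/Abca1+/+ and from 1.61 to 5.93 CPM in E4/Abca1+/- mice. The sham and TBI ranges did not overlap in E3/Abca1+/- (highest sham 2.69, lowest TBI 3.56 CPM) and E4/Abca1+/+ mice (2.60 and 3.03 CPM). They overlapped in the other two genotypes, through 2 sham mice at 2.86 and 3.66 CPM in E3/Abca1+/+ and through the TBI mouse at 1.78 CPM in E4/Abca1+/-.

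Col4a5, which lies beside Col4a6 in the genome as shown above, lay between 3.37 and 7.93 CPM (median 5.38) in sham and between 5.34 and 23.7 CPM (median 11.5) in TBI mice. It rose by 1.09 ± 0.11 (adjusted p = 1.19e-12), and 25 of 29 TBI mice lay above every sham mouse. Col4a1 and Col4a2, the pair of chains found in nearly every basement membrane, changed far less. Col4a2, the chain of this class with the highest level per length (8.31 CPM per kb), went from a median of 50.9 CPM in sham (33.5 to 67.9) to 56.4 CPM in TBI mice (32.0 to 82.2), a change of 0.14 ± 0.06 (adjusted p = 0.0424). That call was lost in 32 of 58 fits that each left out 1 mouse, with changes between 0.11 and 0.16 throughout, and without the Ttr mice (0.11, adjusted p = 0.238). Col4a1 went from a median of 43.1 CPM (30.3 to 60.5) to 51.1 CPM (31.1 to 81.8), a change of 0.25 ± 0.06 (adjusted p = 0.000265), and was called in 1 genotype. The difference between the changes of the chain pairs was not tested.

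Of the other basement membrane collagens, Col18a1, the source of endostatin, rose by 0.70 ± 0.12 and was called in 3 genotypes, with 1 TBI mouse above every sham mouse. Col4a4 rose by 0.59 ± 0.21, Col7a1 by 0.41 ± 0.14 and Col15a1 by 0.36 ± 0.09. Col4a4 was scarce (mean 1.05 CPM), was filtered out within the Abca1+/+ genotypes and was called in no single genotype. In sham and in TBI mice alike, 6 of its 8 highest values were in the 8 Ttr mice. Col4a3 had a change of 0.10 ± 0.21 and a mean of 0.694 CPM over all mice, with 1 count in the lowest library.

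Nidogens link laminin to type IV collagen, and both rose. Nid2 lay between 2.36 and 5.34 CPM (median 3.41) in sham and between 3.27 and 10.5 CPM (median 6.00) in TBI mice, a change of 0.75 ± 0.11, called in each genotype. Nid1, the nidogen with the higher level per length (2.01 CPM per kb), went from a median of 9.15 CPM to 13.7 CPM, a change of 0.63 ± 0.11, called in 3 genotypes. Its E4/Abca1+/- call was lost in 7 of 15 fits that each left out 1 mouse.

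Laminin chains, which assemble as α, β and γ trimers, had a median change of 0.19 (log2) over 11 chains, of which 6 rose. Lamb2, the β2 chain and the laminin with the highest level per length (6.91 CPM per kb), stood apart. It lay between 20.2 and 38.7 CPM (median 30.1) in sham and between 29.4 and 88.9 CPM (median 44.8) in TBI mice, and 22 TBI mice lay above every sham mouse. It rose by 0.67 ± 0.07 (adjusted p = 8.98e-12) and in each genotype. Lama2, Lama5, Lamb1, Lamc1 and Lamc3 rose by 0.15 to 0.25, of which Lama5 at 0.20 ± 0.07 was no longer called without the Ttr mice (0.12, adjusted p = 0.249), while Lama1 (0.25 ± 0.11), Lama4 (0.19 ± 0.09) and Lamb3 (-0.07 ± 0.12) did not pass. Lama3, an α chain of the laminin of skin, fell by 0.23 ± 0.08, and it lay between 4.19 and 10.3 CPM (median 6.22) in sham and between 2.30 and 9.23 CPM (median 5.47) in TBI mice, so the arms overlapped widely. After random thinning of all libraries to the smallest total, its fall no longer passed (adjusted p = 0.0666).

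The collagens that sit on fibrils or span the membrane were mixed. Col16a1, a fibril-associated chain, rose by 0.68 ± 0.10 and in each genotype, with 12 TBI mice above every sham mouse. The type IX chains Col9a1, Col9a2 and Col9a3 rose by 0.73 ± 0.20, 0.49 ± 0.11 and 0.58 ± 0.12. Col9a1 was scarce (mean 0.542 CPM, 0 counts in 1 library) and was tested within E4/Abca1+/- only. Col12a1, Col20a1 and Col22a1 rose by 0.24 to 0.48, and Col14a1 at 0.21 ± 0.12 did not pass. Col19a1, found in neurons as well as muscle, was the member that fell most. It lay between 14.3 and 35.2 CPM (median 25.3) in sham and between 13.6 and 36.3 CPM (median 18.2) in TBI mice and fell by 0.27 ± 0.08 (adjusted p = 0.00243). Summed neuron markers also fell, from a median of 12890 CPM to 10925 CPM, with 10 of 10 genes lower, and their part in the Col19a1 value was not tested.

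The transmembrane collagens Col23a1 and Col13a1 rose by 0.51 ± 0.08 and 0.41 ± 0.13. Col25a1, a neuronal collagen and the most abundant of its class per length (10.3 CPM per kb), had a change of 0.04 ± 0.08, from a median of 69.9 CPM in sham to 75.3 CPM in TBI mice. Of the type VI chains, which form beaded filaments around cells, Col6a1 (9.87 CPM per kb), Col6a2 and Col6a3 rose by 0.41 ± 0.10, 0.36 ± 0.09 and 0.33 ± 0.09. Col6a4, Col6a5, Col26a1 and Col28a1 did not pass in the averaged effect. The network collagens Col8a1, at -0.05 ± 0.17, and Col8a2, at 0.47 ± 0.26, did not pass either.

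The matrix proteins other than collagens and laminins rose in 10 of 11 genes. Sparc, a collagen-binding protein made by astrocytes and vessels, had the highest level per length of the 63 members (59.1 CPM per kb). It lay between 95.8 and 182 CPM (median 121) in sham and between 125 and 340 CPM (median 184) in TBI mice and rose by 0.69 ± 0.07 (adjusted p = 8.30e-12), with 15 TBI mice above every sham mouse. Postn lay between 0.845 and 2.36 CPM (median 1.24) in sham and between 1.44 and 5.15 CPM (median 2.67) in TBI mice, a rise of 1.01 ± 0.12. In E3/Abca1+/+ mice the ranges of Postn did not overlap, with 0.900 to 1.30 CPM in sham and 1.72 to 5.15 CPM in TBI mice. Fn1, which codes for fibronectin, went from a median of 62.3 CPM to 84.6 CPM and rose by 0.52 ± 0.09, in each genotype.

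The small proteoglycans that bind collagen fibrils all rose. Bgn (biglycan) lay between 7.15 and 15.5 CPM (median 11.6) in sham and between 10.6 and 39.1 CPM (median 21.6) in TBI mice, with 23 TBI mice above every sham mouse and a rise of 0.82 ± 0.10 (adjusted p = 2.20e-10). Dcn (decorin), the most abundant of the 3 per length (38.0 CPM per kb), went from a median of 60.4 CPM (35.1 to 88.3) to 87.3 CPM (12.9 to 126) and rose by 0.57 ± 0.11. Lum (lumican) rose by 0.54 ± 0.12. Of the elastic fibre proteins, Fbln5 rose by 0.80 ± 0.12 and Fbln1, with the highest level per length of the 3 (3.52 CPM per kb), by 0.54 ± 0.10, while Fbn1, the microfibril protein fibrillin, had a change of 0.09 ± 0.09 (adjusted p = 0.414). Other genes' exons cover 20.3% of the exon bases of Fbn1, and whether counting used strand is not given in the sources used here.

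Of 26 genes for collagen-modifying and cross-linking proteins, 21 rose and 0 fell in the averaged effect, where 29.0% of all genes rose and 24.3% fell. P4ha3, a prolyl hydroxylase subunit, rose by 1.62 ± 0.11, and the cross-linking enzymes Lox and Loxl2 rose by 1.53 ± 0.18 and 1.47 ± 0.19. Of 21 matrix receptors, 13 rose and 1, Itgav, fell, against the same shares of all genes. Cd44, a hyaluronan receptor that also binds collagen, rose by 2.07 ± 0.14, Itga5, the fibronectin receptor subunit, by 1.07 ± 0.10 and Itgb5 by 1.00 ± 0.05.

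Within each genotype the same comparison answers whether the matrix response appeared at both APOE isoforms and both Abca1 dosages. In E3/Abca1+/+ mice 27 members rose and 0 fell, where 12.3% of all genes rose and 10.9% fell. In E3/Abca1+/- mice 16 rose and 1 fell, against 13.4% and 10.0% of all genes. In E4/Abca1+/+ mice 19 rose and 0 fell, against 8.82% and 4.87%. In E4/Abca1+/- mice 28 rose and Col19a1 fell, against 17.7% and 16.4%. This Col19a1 call was lost in 6 of 15 fits that each left out 1 mouse. The tested members numbered 58, 61, 58 and 63 in this order, since up to 5 scarce chains were left out by the filter on low counts, and the median member change was 0.47, 0.31, 0.41 and 0.49. The counts 0 in the lower direction came from edgeR, as did DESeq2's in the same 2 genotypes, while 32 and 34 members (55.2% and 58.6% of those tested) had an unadjusted p under 0.05 there in either direction, against 35.2% and 26.8% of all genes.

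Bgn, Col16a1, Col3a1, Col4a5, Col4a6, Col5a2, Fn1, Lamb2, Nid2, Postn and Sparc, 11 members, rose in all 4 genotypes. Without the Ttr mice the calls of Bgn, Col3a1, Col5a2, Nid2, Postn and Sparc in E4/Abca1+/+ mice were lost, at changes of 0.52 to 1.37, as were those of Col3a1 and Postn in E4/Abca1+/- mice at 1.46 and 0.68. In fits that each left out 1 mouse, the E4/Abca1+/+ call of Postn was lost in 9 of 14 (changes of 0.63 to 0.83) and that of Nid2 in 5 of 14 (0.53 to 0.70), and the E3/Abca1+/- call of Col3a1 in 1 of 13. A further 8 rose in 3, 6 in 2, 10 in 1 and 28 in none. How many of all genes rose in as many genotypes was not counted, so these counts have no share to be read against. The plot of the 12 largest risers by genotype gives the sizes side by side.

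**Figure D3:**
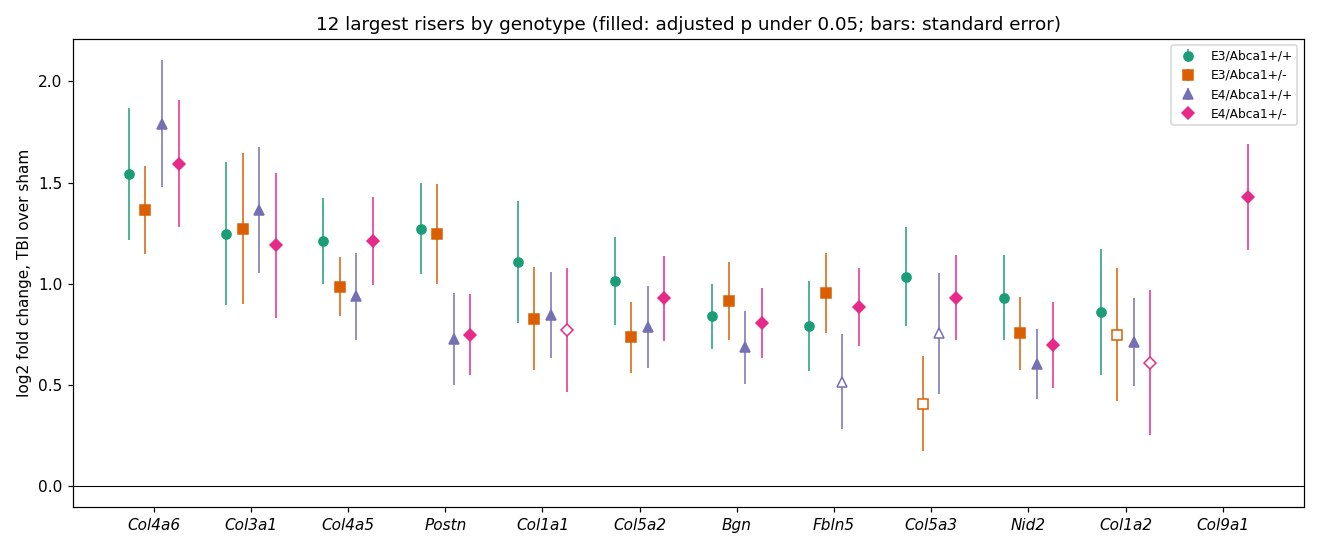
Log2 fold change of TBI over sham (vertical axis) of the 12 members with the largest averaged rise, in each genotype. Bars are standard errors and filled symbols passed the test in that genotype. Col9a1 was tested in E4/Abca1+/- only, and the lowest value is Col5a3 in E3/Abca1+/- at 0.41.

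A rise in 1 genotype and not in another is no difference by itself, and the difference was tested as an interaction. The injury effect by Abca1 copies called 0 of 62 members in E3 and 0 of 63 in E4, and the injury effect by isoform called 0 of 60 in Abca1+/+ and 0 of 63 in Abca1+/- mice, in each case with 0.0% of all genes called by edgeR. At an unadjusted p under 0.05 there were 2, 2, 0 and 2 members, or 3.23%, 3.17%, 0% and 3.17%, against 2.12%, 4.85%, 2.11% and 6.34% of all genes. The injury effect by sex called 0 of 63 members (0.0% of all genes), with 2 members (3.17%) at an unadjusted p under 0.05 against 7.67% of all genes, and DESeq2 called no member in the 5 interactions. Postn had the smallest p of the 5 (0.0076), with an effect larger in females by 0.59 ± 0.21 (log2), at an adjusted p of 0.435.

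For Abca1 copy number, compared within isoform and injury status (+/- minus +/+), 1 member was called, in E3 sham mice. It was 1 of 60 members tested there, a share below that of all genes. Col9a3 was higher in E3/Abca1+/- sham mice by 0.69 ± 0.17 (adjusted p = 0.0367), where 2.51% of all genes were called. It lay between 7.58 and 9.75 CPM (median 8.94) in E3/Abca1+/+ sham and between 9.71 and 20.8 CPM (median 11.3) in E3/Abca1+/- sham mice, and the ranges overlapped. Without the 3 Ttr mice of the latter group the difference was 0.25, at an adjusted p of 0.333. No member was called in E3 TBI (0.18% of all genes called), E4 sham (0.99%) or E4 TBI (1.47%) by edgeR, with 3, 10 and 5 members at an unadjusted p under 0.05 (4.92%, 16.1% and 8.47% of those tested, against 9.07%, 16% and 18.4% of all genes), and DESeq2 called 2 members lower in E4/Abca1+/- sham mice.

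In the isoform comparisons (E4 minus E3), 2 members were called, both in Abca1+/- sham mice. They were 2 of 62 members tested there, a share below that of all genes. In Abca1+/- sham mice Lama5, the α5 laminin chain of mature vessels, was lower in E4 by 0.57 ± 0.11 (adjusted p = 0.00979) and Col4a2 by 0.42 ± 0.11 (adjusted p = 0.0426), where 5.27% of all genes were called. Lama5 lay between 5.13 and 8.60 CPM (median 7.29) in E4/Abca1+/- sham and between 8.85 and 13.4 CPM (median 10.4) in E3/Abca1+/- sham mice, without overlap. Col4a2 lay between 33.5 and 51.0 CPM (median 42.1) and between 37.2 and 67.9 CPM (median 60.0), with overlap. The median over 62 members was -0.19 (log2) against 0.00 over all genes, and 18 members (29.0%) had an unadjusted p under 0.05, against 23.4% of all genes. Without the 3 Ttr mice in each of these groups, Lama5 differed by -0.48 at an adjusted p of 0.216 and Col4a2 by -0.42 at 0.496, and 8 of 61 members had an unadjusted p under 0.05. No member was called in Abca1+/+ sham (0.346% of all genes called), Abca1+/+ TBI (0.207%) or Abca1+/- TBI mice (2.87%) by edgeR, with 3, 2 and 5 at an unadjusted p under 0.05 (5.17%, 3.51% and 7.94%, against 8.89%, 7.21% and 18.7% of all genes), and DESeq2 called none there.

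Several collagens were high in the same mice as Ttr. Col8a2 and Col9a3 had their 8 highest sham values in the 8 sham mice with Ttr at or above 100 CPM, and Col8a1 had 7 of its 8 highest there. In TBI mice, Col8a1, Col8a2 and Col9a3 each had 7 of their 8 highest values in the 8 Ttr mice. Col9a3 lay between 16.5 and 23.5 CPM in these sham mice and between 7.58 and 11.3 CPM in the others. Col8a1 lay between 5.34 and 12.5 CPM in these sham mice and between 3.20 and 7.37 CPM in the others. The Ttr mice thus set the highest levels of these 3 collagens. In the averaged injury effect 0 of 12 choroid plexus markers were called by edgeR, at a median change of 0.54 (log2). The 0 calls therefore do not show equal levels in both arms. Ttr itself was called higher in E3/Abca1+/+ mice, whose sham group held no Ttr mouse. Members other than collagens shared this in part. Postn had 5 of its 8 highest values in the Ttr mice in each arm, and Nid2 had 6 in sham and 4 in TBI mice. Postn lay between 2.74 and 5.02 CPM in the injured Ttr mice and between 1.44 and 5.15 CPM in the other injured mice. Dcn had 0 of its 8 highest sham values in the Ttr mice, where it lay between 35.1 and 53.6 CPM. In the other sham mice it lay between 38.7 and 88.3 CPM. In TBI mice, 1 of its 8 highest values and its lowest, 12.9 CPM, were in Ttr mice.

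**Figure D4:**
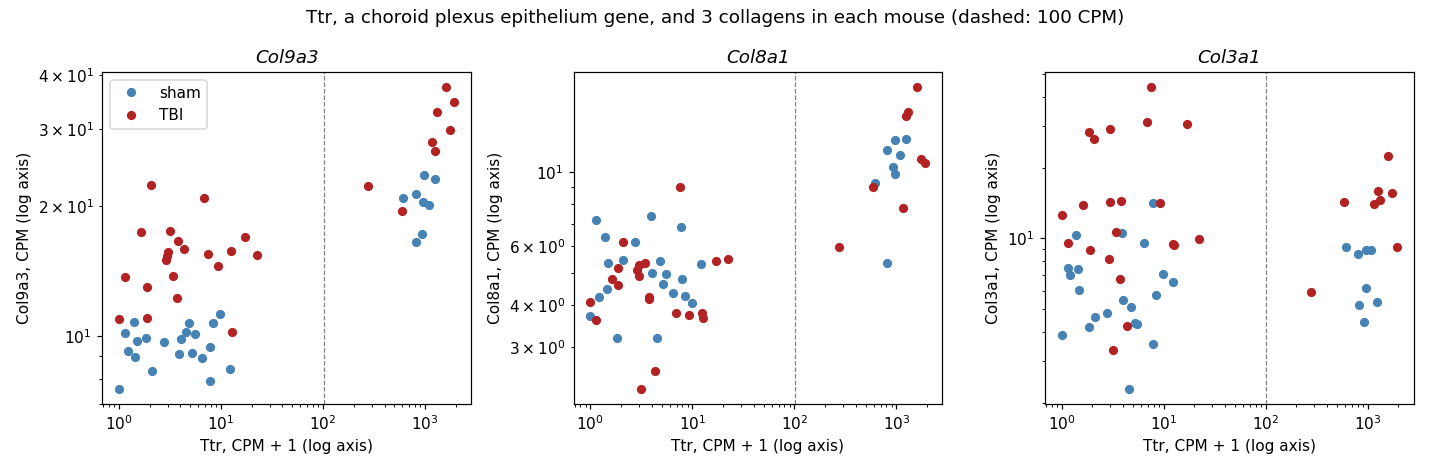
Ttr (horizontal log axis, CPM + 1) against Col9a3, Col8a1 and Col3a1 (vertical log axes, CPM) in each of the 58 mice, sham in blue and TBI in red, with a dashed line at 100 CPM of Ttr. To its right lie 8 sham and 8 TBI mice, which are high for Col9a3 and Col8a1 but not for Col3a1.

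Markers of other cell types were read against the 29.0% of all genes that rose in the averaged effect. The fibroblast markers, 16 genes of which 12 rose, summed to between 158 and 354 CPM (median 218) in sham and between 139 and 701 CPM (median 313) in TBI mice. Astrocyte markers rose in 9 of 9 genes, from a median summed level of 6247 CPM to 8700 CPM, and microglia and macrophage markers in 12 of 12, from 319 to 635 CPM. Mural markers rose in 5 of 13 and endothelial markers in 7 of 14 genes, from medians of 184 to 219 CPM and of 307 to 335 CPM, and oligodendrocyte markers rose in 3 of 8, from 3158 to 3384 CPM. The mural and oligodendrocyte shares lay near that of all genes. Within E3/Abca1+/+, E3/Abca1+/-, E4/Abca1+/+ and E4/Abca1+/- mice, 3 of 15, 1 of 16, 3 of 15 and 5 of 16 fibroblast markers tested rose. The shares of all genes that rose were 12.3%, 13.4%, 8.82% and 17.7% in this order. In whole tissue, more cells of a type and more RNA per cell cannot be told apart.

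Among the 29 injured mice, the mean log2(CPM + 1) of the fibroblast markers and of the astrocyte markers was set against each of the 12 largest risers, 24 correlations in all. Col1a2 went with the fibroblast markers (r = 0.92, Spearman's rho = 0.81, both permutation p = 1e-05, adjusted 3.43e-05 and 4.8e-05, which is the smallest p these permutations give). Without the 2 mice farthest from the marker median r was 0.87, and with each group centred on its mean it was 0.92. Col1a1 had r = 0.92 and rho = 0.82, Bgn r = 0.85, Col3a1 0.84 and Fbln5 0.81 with the same markers. With the astrocyte markers r was 0.59 for Col1a2, 0.52 for Col1a1, 0.66 for Bgn, 0.70 for Col3a1 and 0.61 for Fbln5. Within E4/Abca1+/+ TBI mice, the fibroblast and astrocyte r were 0.48 and 0.74 for Col3a1, 0.63 and 0.72 for Col1a2, and 0.65 and 0.77 for Bgn. There they were 0.71 and 0.44 for Col1a1 and 0.73 and 0.42 for Fbln5. Postn had r = 0.22 and rho = -0.00 with the fibroblast markers (permutation p = 0.262 and 0.997, adjusted 0.262 and 0.997), and Col5a3 had r = 0.25. Within groups Postn had r = 0.58 in E3/Abca1+/+, 0.65 in E3/Abca1+/-, -0.16 in E4/Abca1+/+ and -0.17 in E4/Abca1+/- TBI mice. With the astrocyte markers Postn had r = 0.48 and Col5a3 0.50. The difference between Postn and the type I chains was not tested.

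Of the 12 risers, Col4a6 and Col4a5 had the highest pooled correlations with the astrocyte markers. For Col4a6 r was 0.81 and rho 0.83 (both permutation p = 1e-05, the smallest possible, adjusted 3.43e-05 and 4.8e-05), r was 0.81 without the 2 farthest mice and 0.87 with groups centred. For Col4a5 r was 0.80 with the astrocyte and 0.61 with the fibroblast markers, the latter falling to 0.39 without the 2 farthest mice. Within the 6 E3/Abca1+/- TBI mice the order was the other way, with r = 0.32 for the astrocyte and 0.89 for the fibroblast markers. The difference between 2 such correlations was not tested. These mice share a lesion, tissue and library each, and the correlations describe how levels went together.

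**Figure D5:**
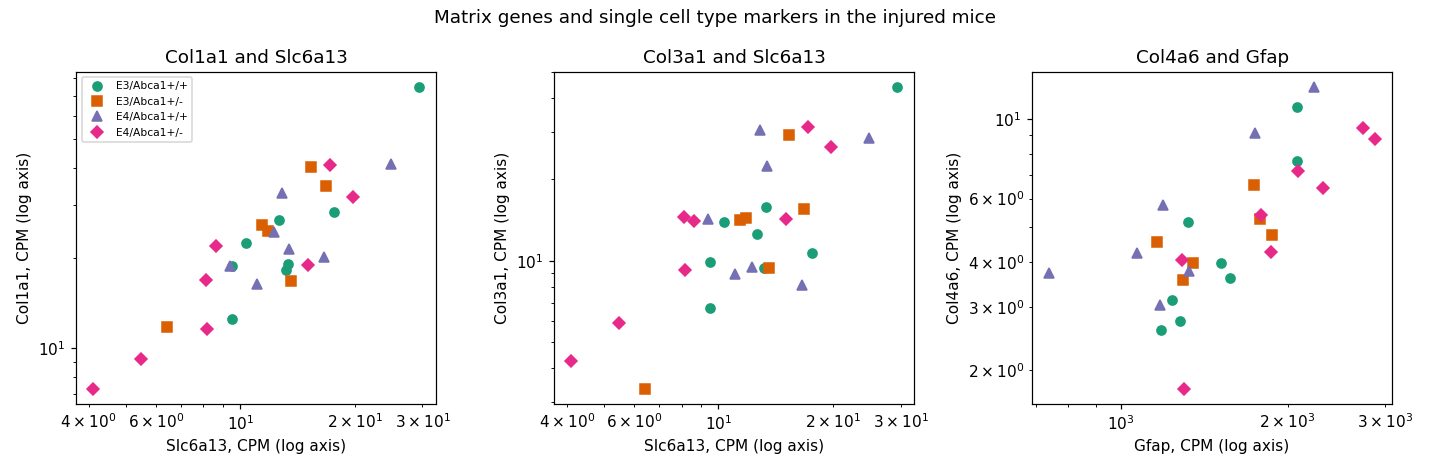
Col1a1 and Col3a1 against the fibroblast marker Slc6a13, and Col4a6 against the astrocyte marker Gfap, in the 29 injured mice (log axes, CPM), with 1 symbol per genotype. The mouse at the top right of the left panel is E3/Abca1+/+ TBI mouse 8, with Col1a1 at 74.8 CPM and Slc6a13 at 29.4 CPM.

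Single mice stood apart in the matrix genes. E3/Abca1+/+ TBI mouse 8 was the highest of the 29 TBI mice in 41 of 63 members, with Col1a2 at 106 CPM and Fn1 at 212 CPM. Without it, 20 members rose in E3/Abca1+/+ mice and 41 in the averaged effect, and the E3/Abca1+/+ changes of Col1a2 went from 0.86 to 0.39 and of Col1a1 from 1.11 to 0.67. E4/Abca1+/- TBI mouse 6 was the lowest TBI mouse in 13 members and mouse 8 in 10, the latter with Dcn at 12.9 CPM. Without mouse 6, 34 members rose in E4/Abca1+/- mice, and without mouse 8, 33 rose and 1 fell.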

How the data were processed

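RNA from the pooled hippocampus and cortex of 58 mice was sequenced by the authors on an Illumina instrument, aligned to mm10 and summarised with Subread/featureCounts v1.5.0. The deposited table holds raw read counts per gene and was not normalized. Blank symbols (2 rows) were removed, and 23 symbols that a spreadsheet had turned into dates were restored from their gene identifiers, leaving 15171 genes. Of 183 pairs of mice within groups 0 were identical. Counts were normalized by TMM, filtered per fit with filterByExpr and tested with edgeR 4.0.16 (quasi-likelihood, R 4.3.3), which was tested on simulated data; adjusted p is Benjamini-Hochberg over all genes tested. SE is the log2 fold change divided by the root of F. DESeq2 1.42.0, other filters and scalings, sex as a covariate, 1 sex only, thinning to the lowest total and leaving out each mouse were alternatives. CPM per kb used union exon lengths (GENCODE M21, GRCm38). Depth ran from 4421308 to 37877346 counts, which leaves chains under 1 CPM with few counts.

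Members and lists were chosen with earlier results of these data known. Named are the member of each class with the most CPM per kb, the 12 largest rises and 6 largest falls (3 passed), members called by genotype, and 3 genes of each pathway list. Other members are named to account for their class and were chosen after their values were seen. Correlations used 100000 permutations, and these and the fits without Ttr mice were added after seeing the data. Marker lists share Pdgfrb. The values of 1 member are not reported here, though it is counted in the totals.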

Additional observations from a re-analysis of the deposited data

Results flagged for a closer look

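Dixon's 95% limit was applied to 200 groups of 6 to 8 mice, for 25 named members. In 21 of them the highest or lowest mouse lay further from the next one than the limit allows. Chance gives about 5% of groups where values are normally distributed. The limit was applied to CPM without logs, so the 5% may not hold here. The mice overlap between genes, so the 21 are not separate events. E3/Abca1+/+ TBI mouse 8 was the highest of its group in 10 of them, with Bgn at 39.1 CPM, Col1a1 at 74.8, Col1a2 at 106, Col3a1 at 44.0, Col4a5 at 23.7, Col5a2 at 23.6, Fbln5 at 20.0, Lama5 at 18.4, Lamb2 at 88.9 and Nid1 at 33.3 CPM. The same mouse had the highest fibroblast marker Slc6a13 of the injured mice at 29.4 CPM, and its part in these values was not tested.

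The mice that stood out for Col8a1 and Col9a3 were high for Ttr. Col8a1 was 10.9 CPM in E3/Abca1+/- TBI mouse 3 and 17.9 CPM in E4/Abca1+/+ TBI mouse 6. Col9a3 was 29.9 CPM and 37.5 CPM in the same mice and 26.7 CPM in E3/Abca1+/+ TBI mouse 7. In E4/Abca1+/- TBI mouse 8, Dcn was the lowest of its group at 12.9 CPM and Col19a1 the highest at 22.7 CPM. Col4a6 was 3.67 CPM in E4/Abca1+/- sham mouse 2, whose Gfap was 673 CPM, the highest of the sham mice. Sparc was 340 CPM in E3/Abca1+/- TBI mouse 5 and 182 CPM in E4/Abca1+/+ sham mouse 2. Col9a1 was 1.07 CPM in E3/Abca1+/+ sham mouse 7.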

How the results depend on the processing

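Counts of members called moved by over 1.5 times under these settings, each against the value reported. In E3/Abca1+/+ the 27 calls were 12 in females only and 16 in males only; in E3/Abca1+/- the 17 were 6 in males only; in E4/Abca1+/+ the 19 were 5 in males only and 9 without Ttr mice; and in E4/Abca1+/- the 29 were 13 in females only, 8 in males only and 16 without Ttr mice. These fits hold fewer mice. For Abca1 copies in E3 sham the 1 call was 0 with all 58 mice in a single fit and without Ttr mice. DESeq2's Wald test called 2 for Abca1 copies in E4 sham and 9 for isoform in Abca1+/- sham, where edgeR called 0 and 2, and without Ttr mice the latter were 0. Leaving out each mouse gave 20 to 28 calls in E3/Abca1+/+, 13 to 24 in E3/Abca1+/-, 15 to 23 in E4/Abca1+/+, 23 to 34 in E4/Abca1+/- and 43 to 50 averaged. Of single members, Col8a1 averaged turned from -0.05 to 0.028 in females only (adjusted p = 0.940) and to 0.076 after thinning (adjusted p = 0.789). Calls of named members were lost in 42 of 87 values in males only, 22 of 86 in females only and 24 of 90 without Ttr mice. They were lost in 10 of 64 with all mice in a single fit and in 14 of 83 after thinning (1 random draw). DESeq2's test lost 4 of 90 and its size factors 2 of 90, and other filters or sex as a covariate lost 0. No paired analysis was possible because replicate numbers only name the mice. Chains under 1 CPM rest on few counts per library.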
